A study of Arabidopsis thaliana with 12 samples.

Results

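The Aux/IAA genes *IAA18* (AT1G51950), *IAA20* (AT2G46990), *IAA29* (AT4G32280) and *IAA30* (AT3G62100) of *Arabidopsis thaliana* were followed across genotype and auxin treatment. They were chosen as the genes of these names with a probe set listed with exactly 1 gene in the probe-to-gene annotation, which gave 4 of 13356 genes so listed, with 1 probe set each (246376_at, 266753_at, 253423_at and 251246_at). Total RNA came from whole light-grown seedlings of *arf2-6*, which carries a mutant allele of *ARF2* (the gene of a repressor-type auxin response factor) in the Columbia background, and of the Columbia wild type (WT). All seedlings were 7 days old, had grown from seed in shaken liquid Murashige and Skoog medium with 1.5% sucrose and a cycle of 16 h light and 8 h dark, and were kept at 24 °C for the final 2 h of treatment. The groups were *arf2-6* with 5 µM indole-3-acetic acid (arf2-6_IAA), *arf2-6* with ethanol, the solvent (arf2-6_control), WT with 5 µM indole-3-acetic acid (WT_IAA) and WT with ethanol (WT_control), with 3 arrays each.

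Aux/IAA proteins are short-lived nuclear repressors that bind auxin response factors and hold auxin-responsive genes off with the help of TOPLESS corepressors. Auxin, of which indole-3-acetic acid is the main natural form, binds TIR1/AFB receptors together with a degron in domain II of the Aux/IAA protein, and the repressor is then degraded. Many Aux/IAA genes are themselves induced by auxin within a short time, so that the family takes part in a negative feedback. *IAA18* encodes a member with the degron, and stabilised forms of it reduce lateral root formation. The products of *IAA20* and *IAA30* lack domain II and are long-lived. *IAA29* is also known as a target of phytochrome-interacting factors in light and shade responses. The hormone and the genes share the abbreviation IAA, and the genes are always written here with their number.

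Signals were log2 values, and no array held a value below 5.64 log2 (a signal of 50), so that a group at this lowest value has only an upper limit there. Array medians lay between 6.16 and 6.22 log2, and 12914 to 13075 probe sets lay above the lowest value on an array. Differences were fitted with limma over 14215 probe sets, with a call at Benjamini-Hochberg adjusted p under 0.05. A pair of control arrays stood apart together, since the deviations of arf2-6_control 2 and WT_control 3 from their group means correlated at 0.633 over probe sets, which are not independent replicates. The *ARF2* transcript had 0 single-gene probe sets in the annotation and so did not check the genotype labels. The leaf photosynthesis markers were high in every group, with summed linear signals of 13.70 to 13.97 on the log2 scale over the 3 of 5 markers with a probe set. Of the root hair expansins, *EXPA7* was above the lowest value on every array and *EXPA18* on all but 1 arf2-6_IAA array, and the root tip and xylem markers had 0 single-gene probe sets.

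Of the 29 genes of the Aux/IAA family, 7 had a single-gene probe set. *IAA31*, *IAA33* and *IAA34* did not exceed the lowest value on any of the 12 arrays and were not tested, and 22 genes were not analysed here. The 4 genes above passed the filter on low signals. *IAA20*, *IAA29* and *IAA30* passed it through groups in which they were high while others lay at or near the lowest value, so that a difference of some kind was built into their passing, and the counts of called genes below are descriptions.

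With indole-3-acetic acid, 3 of the 4 genes rose in *arf2-6* and 2 of the 4 rose in WT. Across all tested probe sets, 3.75% were called higher with auxin in *arf2-6* and 4.64% in WT. Treated arrays lay above solvent arrays without overlap for 11.3% of probe sets in *arf2-6* and 10.9% in WT. The median log2 difference over all tested probe sets was -0.02 in *arf2-6* and 0.00 in WT.

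*IAA29* rose with auxin in both genotypes. It measured 9.14, 9.26 and 9.33 log2 on the arf2-6_IAA arrays, and each of the 3 arf2-6_control arrays gave the lowest value, 5.64 log2. In WT it measured 9.43, 9.19 and 9.24 log2 on the WT_IAA arrays and 5.64 log2 on all 3 WT_control arrays. Every auxin-treated array therefore lay far above every solvent array, in both genotypes. Expressed as a linear signal, the group means corresponded to 607 in arf2-6_IAA and 626 in WT_IAA, against a limit of 50 in both control groups. The rise was at least 12.1-fold in *arf2-6* (log2 3.6, SE 0.10, adjusted p = 5.4e-09) and at least 12.5-fold in WT (log2 3.65, SE 0.10, adjusted p = 3.6e-09).

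**Figure D1:**
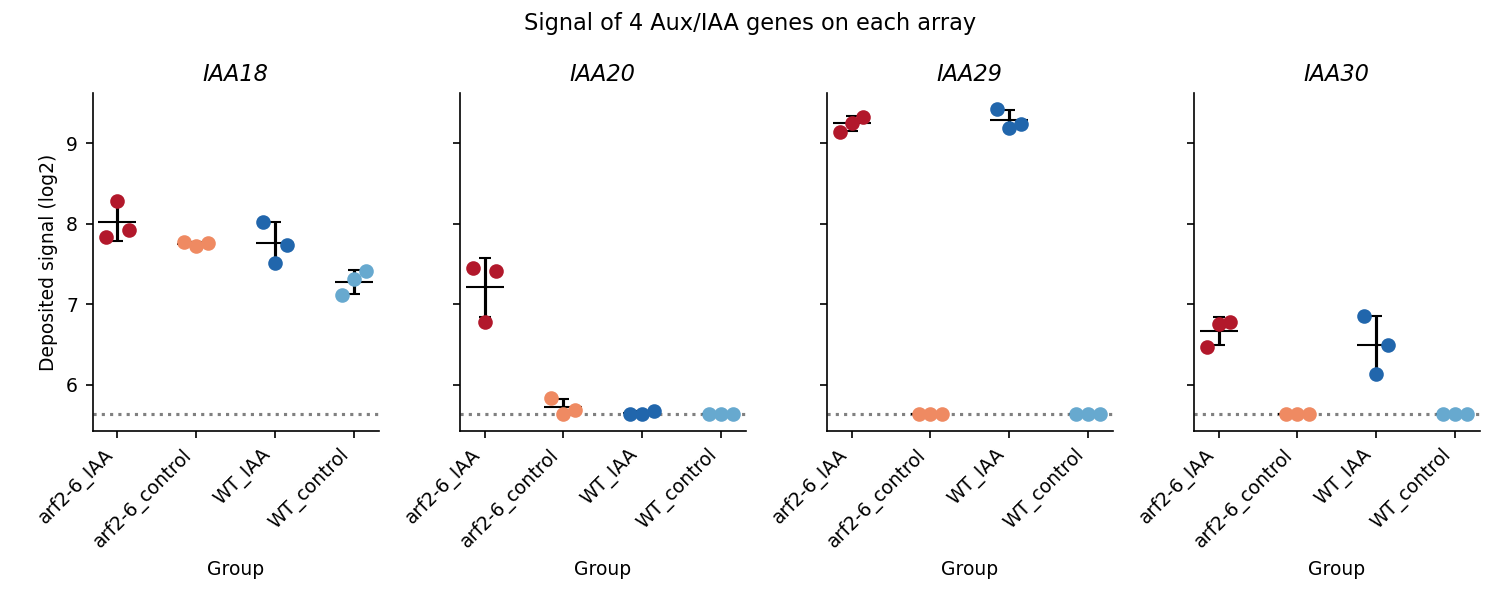
Deposited log2 signal of each gene (y axis) on each of the 3 arrays of each group (x axis). Points are arrays in replicate order, horizontal bars with whiskers are the mean and SD, and the dotted line is the lowest deposited value, 5.64 log2. *IAA29* and *IAA30* leave that line on the auxin-treated arrays of both genotypes, whereas *IAA20* lies well above it only on the 3 arf2-6_IAA arrays (6.78 to 7.45 log2).

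The levels of *IAA29* under auxin did not differ beyond their spread between the genotypes. Its mean was 9.25 ± 0.09 log2 in arf2-6_IAA and 9.29 ± 0.13 log2 in WT_IAA (SD, n = 3 each), and the array values of the 2 groups overlapped. The difference was -0.04 log2 with a 95% interval of -0.26 to 0.17 (adjusted p = 0.84). Because both control groups lay at the lowest value, the difference of the 2 responses rested on the treated arrays alone, and any difference between the genotypes below a signal of 50 would not have been seen.

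*IAA30* also rose with auxin in both genotypes. It measured 6.47, 6.75 and 6.78 log2 in arf2-6_IAA, and 5.64 log2 on all 3 arf2-6_control arrays. In WT_IAA it measured 6.86, 6.14 and 6.50 log2, and in WT_control 5.64 log2 on all 3 arrays. The treated and solvent arrays did not overlap in either genotype, while the treated arrays of the 2 genotypes did.

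The rise of *IAA30* was at least 2.03-fold in *arf2-6* (log2 1.02, SE 0.15, adjusted p = 0.0011). In WT it was at least 1.81-fold (log2 0.86, SE 0.15, adjusted p = 0.0034). In WT the call rested on the spread shared over all 4 groups, since a fit on the 6 WT arrays alone gave the same difference with adjusted p = 0.069, and the range over all alternatives tried was 3.9e-04 to 0.069. Under auxin the level was 6.67 ± 0.17 log2 in arf2-6_IAA and 6.50 ± 0.36 log2 in WT_IAA (SD, n = 3 each). That difference of 0.17 log2 had a 95% interval of -0.16 to 0.49 and was not called (adjusted p = 0.53). The interval used the shared spread (SE 0.15), to which control arrays at the lowest value added none. A fit on the treated arrays alone gave a larger SE of 0.21.

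*IAA20* differed between the genotypes in its signal under auxin. It measured 7.45, 6.78 and 7.41 log2 in arf2-6_IAA. In arf2-6_control it measured 5.84, 5.64 and 5.69 log2, with 1 array, arf2-6_control 2, at the lowest value. In WT_IAA it measured 5.64, 5.64 and 5.68 log2, with 2 of 3 arrays at the lowest value, and in WT_control 5.64 log2 on all 3 arrays. All 3 arf2-6_IAA arrays thus lay above the other 9 arrays, among which no value exceeded 5.84 log2.

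In *arf2-6* the auxin-treated seedlings had at least 2.81-fold more *IAA20* signal than the solvent controls (log2 1.49, SE 0.14, adjusted p = 6.1e-05). In WT the fitted difference was 0.01 log2, with a 95% interval of -0.30 to 0.32 (adjusted p = 1). That interval used the spread shared over all 4 groups (SE 0.14), and a fit on the WT arrays alone gave an SE of 0.02. Neither bounds a WT response below the lowest value. Under auxin, *arf2-6* stood at 7.21 ± 0.37 log2 and WT at 5.65 ± 0.02 log2 (SD, n = 3 each). The mutant was at least 2.94-fold higher there (log2 1.56, SE 0.14, adjusted p = 4.3e-04). *IAA20* was the only one of the 4 genes called between the genotypes under auxin, where 2.93% of all tested probe sets were called higher and 17.8% were higher without overlap. Both the auxin effect in *arf2-6* and the genotype difference under auxin passed the threshold in all 20 alternatives that gave *IAA20* a value, at adjusted p of 8.6e-07 to 0.015 and of 2.2e-06 to 0.024. Without both control arrays that deviated together, the 2 values were 1.45 and 1.56 log2.

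The difference between the genotypes in the auxin effect itself was 1.48 log2 for *IAA20* (SE 0.20, 95% interval 1.03 to 1.92, adjusted p = 0.028). Of the 14215 probe sets, 2 (0.0141%) were called in that direction and 14 (0.0985%) in the other. Upper quartile scaling gave 2 and 1 such calls. The size changed little when single arrays were left out, between 1.36 and 1.69 log2, but the call held in 3 of those 12 fits. The adjusted p was 0.071 and 0.065 without arf2-6_IAA 1 and 3, and 0.076, 0.086 and 0.11 without arf2-6_control 1, 2 and 3. It was 0.063 without WT_IAA 2, and 0.11, 0.12 and 0.065 without WT_control 1, 2 and 3. Without arf2-6_IAA 2, the treated mutant array with the lowest *IAA20* signal, it was 6.4e-05. The other fits that held were those without WT_IAA 1, at 0.05 after rounding, and without WT_IAA 3, at 0.028. Without both control arrays that deviated together it was 0.13. Over all 19 alternatives it ranged from 6.4e-05 to 0.13, and the call held in 8. The interval and adjusted p of the main fit used the spread shared over all 4 groups. That spread came mostly from arf2-6_IAA (SD 0.37 log2), against 0.10 log2 in arf2-6_control, 0.02 log2 in WT_IAA and 0.00 log2 in WT_control. Since WT lay at or beside the lowest value with and without auxin, a WT response below a signal of 50 would not have been seen.

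**Figure D2:**
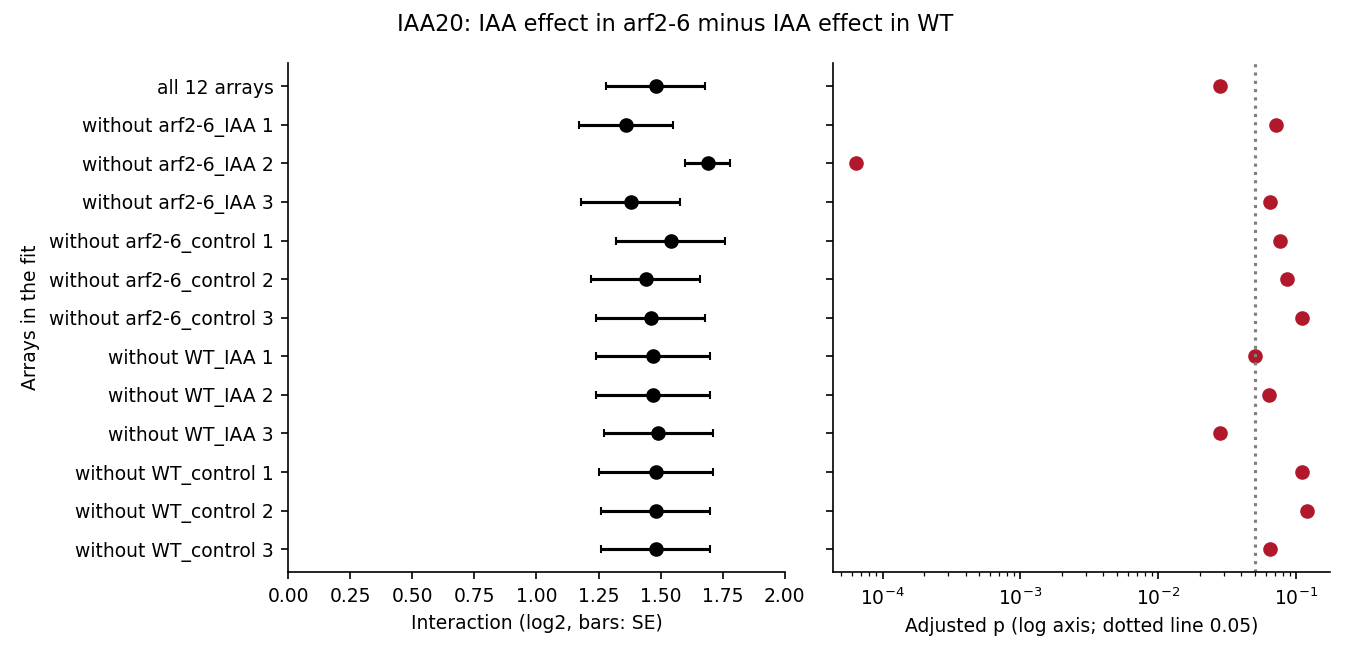
Left, the *IAA20* auxin effect in *arf2-6* minus that in WT (x axis, log2, bars SE) with all arrays and with each array left out in turn (y axis). Right, the adjusted p of the same fits on a log axis, with the threshold of 0.05 dotted. The size stays between 1.36 and 1.69 log2, while 9 of the 12 fits with an array left out lie beyond the threshold.

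The groups compared for *IAA20* also differed in other measures, whose part in its level was not tested. The summed linear signal of the 2 root hair markers lay, on the log2 scale, between 6.85 and 7.14 in arf2-6_IAA, against 7.24 to 7.63 in arf2-6_control and 8.04 to 8.73 in WT_IAA. The mean 3' minus 5' difference over the 3 pairs of Arabidopsis control probe sets (actin, GAPDH and ubiquitin), a sign of RNA length, was 0.996 to 1.12 log2 in arf2-6_IAA, against 1.14 to 1.36 log2 in arf2-6_control and 1.13 to 1.29 log2 in WT_IAA. In both measures the arf2-6_IAA arrays lay below those of arf2-6_control and WT_IAA without overlap. WT_control also lay above arf2-6_IAA for the root hair markers (7.78 to 8.51 log2). Its 3' minus 5' difference of 0.956 to 1.28 log2 overlapped that of arf2-6_IAA. Both root hair markers were called lower in arf2-6_IAA than in WT_IAA (*EXPA7* -0.96 log2, *EXPA18* -1.54 log2, limma adjusted p = 0.018 and 0.0055). Neither was called for the auxin effect in *arf2-6*. The 3 leaf photosynthesis markers summed to 13.93 to 13.97 log2 in arf2-6_IAA and to 13.83 to 13.91 log2 in WT_IAA, and none of them was called. In whole seedlings, a change in the number of cells that express a gene and a change in RNA per cell cannot be told apart.

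*IAA18* was above the lowest value on every array. It measured 7.84, 8.28 and 7.93 log2 in arf2-6_IAA and 7.77, 7.72 and 7.76 log2 in arf2-6_control. It measured 8.02, 7.51 and 7.74 log2 in WT_IAA and 7.12, 7.31 and 7.42 log2 in WT_control. WT_control was thus the lowest group, below all arrays of the other 3 groups, and arf2-6_control and WT_IAA lay at nearly the same mean, 7.75 and 7.76 log2.

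None of the *IAA18* differences was called in the limma fit. The auxin effect was 0.27 log2 in *arf2-6* (95% interval -0.07 to 0.60, adjusted p = 0.38) and 0.48 log2 in WT (0.14 to 0.81, adjusted p = 0.090). Treated arrays lay above solvent arrays without overlap in both genotypes, a pattern of 11.3% of tested probe sets in *arf2-6* and 10.9% in WT. The unadjusted limma p in WT was 0.0096, and 2653 of the 14215 tested probe sets had one under 0.05 there. The genotype difference was 0.26 log2 under auxin (-0.08 to 0.59, adjusted p = 0.33) and 0.47 log2 in controls (0.13 to 0.80, adjusted p = 0.17). The 3 arf2-6_control arrays lay above the 3 WT_control arrays without overlap, a pattern that 7.23% of all tested probe sets showed. The 2 auxin effects differed by -0.21 log2 (95% interval -0.68 to 0.26). These intervals leave room for changes of more than 1.5-fold in any of these differences.

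Without auxin, 0 of the 4 genes were called between the genotypes in limma, and 1, *IAA18*, had an unadjusted p under 0.05 (0.011). Over all tested probe sets, 0.858% were called in that comparison and 15.0% had an unadjusted p under 0.05. *IAA29* and *IAA30* lay at the lowest value on all 6 control arrays, so that no difference could be measured. *IAA20* stood at 5.72 ± 0.10 log2 in arf2-6_control and at 5.64 log2 on all WT_control arrays, a difference of 0.08 log2 (95% interval -0.23 to 0.39, adjusted p = 0.88). This interval also used the shared spread and does not bound a difference below the lowest value.

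**Figure D3:**
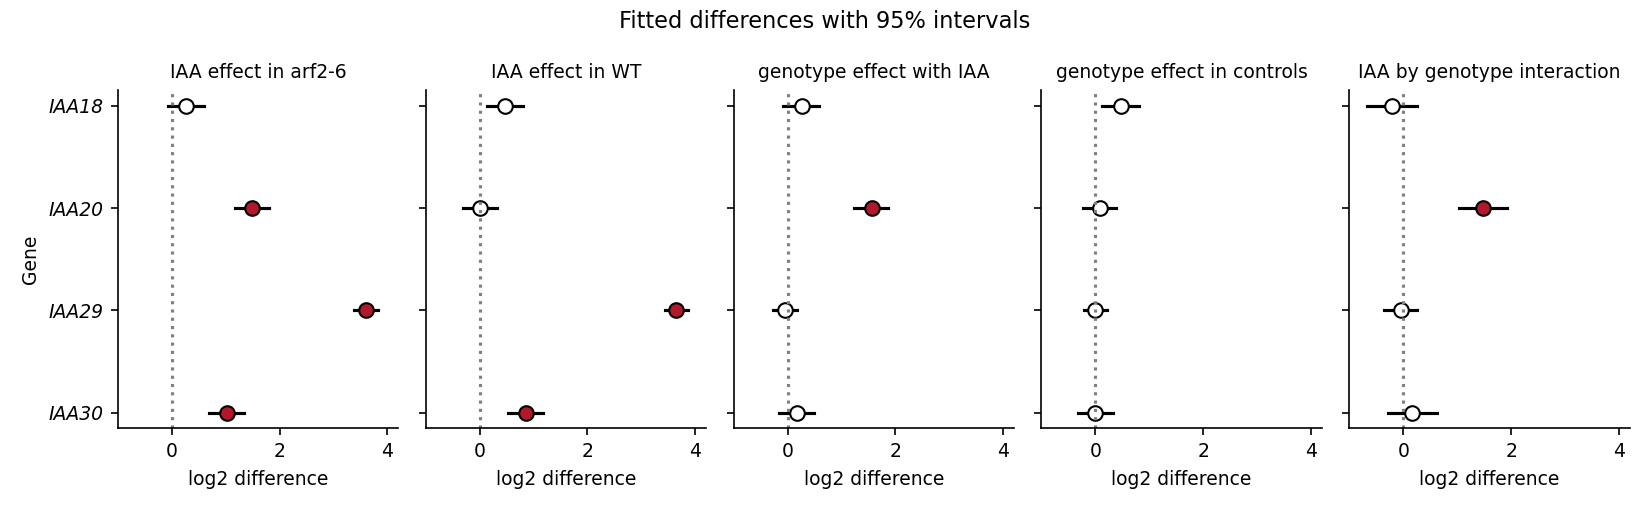
Fitted log2 differences of the 4 genes (y axis) in the 5 comparisons (panels), with 95% intervals. Auxin effects are treated minus solvent, genotype effects are *arf2-6* minus WT, and the interaction is the auxin effect in *arf2-6* minus that in WT. Filled points passed adjusted p under 0.05. *IAA20* is the only gene filled in the panels of the genotype effect with auxin (1.56 log2) and of the interaction (1.48 log2).

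For *IAA29* and *IAA30* both treated groups stood together above both control groups, with no difference called between neighbours of like treatment. For *IAA20*, arf2-6_IAA stood above arf2-6_control, WT_IAA and WT_control, which lay within 0.08 log2 of each other in mean. For *IAA18*, arf2-6_IAA at 8.02 ± 0.23 log2 came first and WT_control at 7.28 ± 0.15 log2 last, and arf2-6_control was not compared with WT_IAA by a test.

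Among other genes of the auxin pathway, 12 were tested, and 7 rose with auxin in *arf2-6* and 8 in WT, with none lower. Their median auxin effect was 1.18 log2 in *arf2-6* and 1.56 log2 in WT. Over all 14215 tested probe sets, 3.75% were called higher with auxin in *arf2-6* and 4.64% in WT. Called lower were 677 in *arf2-6* and 534 in WT. Of the 12 genes, *GH3.1*, *WAG2*, *LBD29* and *PUCHI* lay at the lowest value on every control array. They passed the filter through treated groups alone and could not fall, so that the counts of rises are descriptions. Another 1 GH3 gene and 3 auxin synthesis genes lay at the lowest value on every array and were not tested. The lists of TIR1/AFB receptors, auxin response factors, TOPLESS corepressors and ubiquitin ligase subunits had 0 single-gene probe sets. The signalling partners of the 4 proteins were therefore not analysed here. Among auxin outputs, 3 of 4 tested GH3 genes, which encode enzymes that conjugate auxin to amino acids, rose in both genotypes. *GH3.3* rose by 5.90 log2 in *arf2-6* and 5.78 log2 in WT, and *GH3.17* was not called (0.10 and 0.03 log2). *WAG2*, a kinase gene of auxin transport, rose in both as well, with 6.39 ± 0.14 log2 in arf2-6_IAA and 6.75 ± 0.41 log2 in WT_IAA (SD, n = 3 each) and all control arrays at the lowest value. *YUC6*, an auxin synthesis gene, measured -0.04 log2 in *arf2-6* and -0.23 log2 in WT for the auxin effect and was not called. *LHW* and *PHV*, regulators of vascular patterning, were also not called, at -0.18 and -0.16 log2 in *arf2-6* and at -0.55 and -0.30 log2 in WT.

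Between the genotypes under auxin, 0 of these 12 genes were higher in *arf2-6* and 3 were lower (*LBD16*, *LBD29* and *PUCHI*, transcription factor genes of lateral root formation). Over all tested probe sets, 5.86% were called lower there. The differences were -0.64 log2 for *LBD16*, -0.62 log2 for *LBD29* and -0.87 log2 for *PUCHI* (adjusted p = 0.0075, 0.035 and 3.3e-04). The interaction of *PUCHI* was -0.87 log2 (adjusted p = 0.023), opposite in sign to that of *IAA20*, and no other of the 12 genes was called for it. *PUCHI* lay at the lowest value on every control array and on 1 arf2-6_IAA array. Its response in *arf2-6* was thus measured only near that value. The *PUCHI* call was not followed through the alternatives. Interaction calls in its direction numbered 14 in the main fit and 1 with upper quartile scaling.

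**Figure D4:**
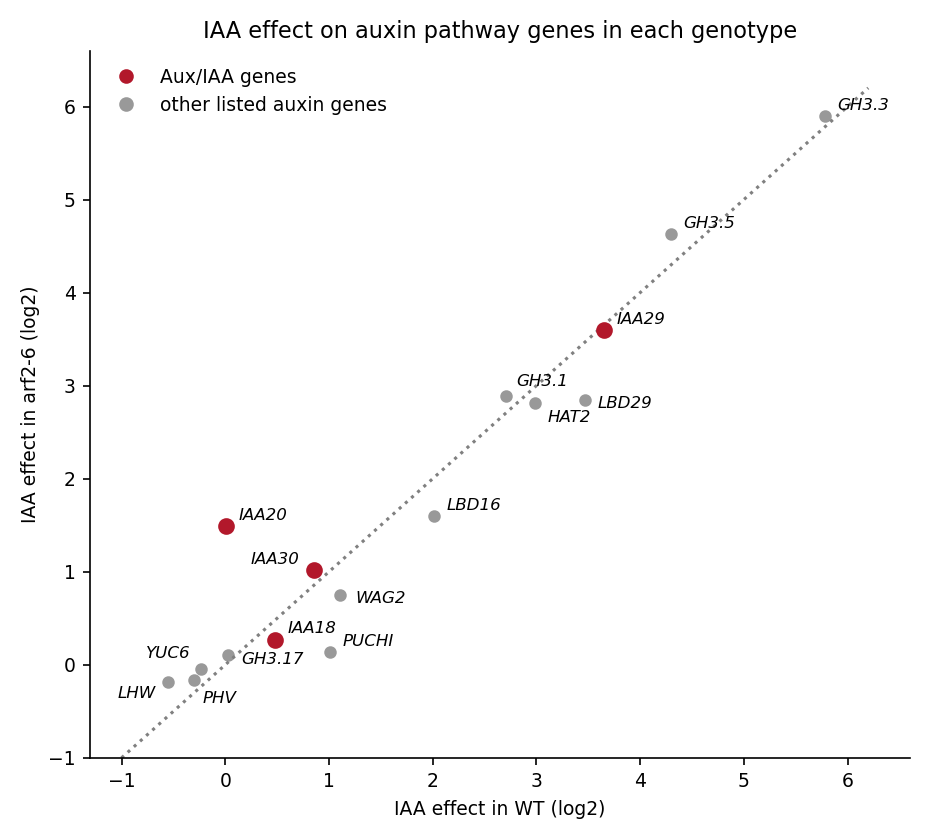
Auxin effect in WT (x axis) against that in *arf2-6* (y axis), both in log2, for the 4 Aux/IAA genes (red) and the 12 other tested auxin pathway genes (grey). On the dotted line the 2 effects are equal. *IAA29* lies close to it (3.6 log2 in *arf2-6* against 3.65 log2 in WT), whereas *IAA20* lies above it (1.49 against 0.01 log2) and *PUCHI* below it (0.14 against 1.01 log2).

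Genes with the most similar pattern were listed by the Pearson correlation of log2 signals over the 12 arrays, among 7636 other tested single-gene probe sets, as a description. The arrays share group structure and the lowest value, so that any gene responding to auxin in both genotypes scores high, and the measure ignores the size of a change. For *IAA29* the highest were *AT3G26760* (0.997), the auxin conjugase gene *GH3.1* (0.997) and *AT3G51410* (0.996). These rose by 2.64, 2.89 and 2.42 log2 in *arf2-6* and by 2.74, 2.71 and 2.51 log2 in WT. For *IAA30* they were *AT3G19200* (0.976), *AT4G03140* (0.967) and *AT1G59740* (0.958), all of which rose in both genotypes. *IAA29* and *IAA30* had a correlation of 0.947 with each other.

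For *IAA20* the most similar were *AT1G04930* (0.994), *AT5G17370* (0.962) and *AT1G15800* (0.957). They rose in *arf2-6* by 0.17, 0.47 and 0.18 log2, and none passed the test of the interaction (adjusted p = 0.99, 0.75 and 0.67). *AT1G04930* and *AT1G15800* lay at the lowest value in the other 3 groups. For *IAA18* the highest were *AT5G03320* (0.889), *AT4G03180* (0.883) and *AT1G65220* (0.876). Of these, *AT5G03320* rose with auxin in WT (log2 0.47, SE 0.11, adjusted p = 0.025), and the others were not called in any comparison.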

How the data were processed

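The authors deposited log2 signals, 1 per probe set, for 22810 probe sets on 12 one-colour arrays. The method of summary and scaling was not given in the sources used here. Each array had its group and replicate number from the labels, which do not say whether replicates were separate cultures. The p-values therefore reflect only how these arrays vary, which may be technical variation, and the number of arrays limits precision.

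From the deposited log2 values, limma 3.58.1 (R 4.3.3, statmod 1.5.0) fitted 1 mean per group over all arrays, with an intensity-trended variance prior. Tests were two-sided, and p-values were adjusted by Benjamini-Hochberg over all tested probe sets. Left out were 64 AFFX control probe sets and, by mean signal, the lowest 30% of the others. Ties at the lowest value made this 8531, and 14215 were tested. A fold against a group with arrays at the lowest value is a lower bound. The fit was tested on simulated data that had no lowest value, so that the test does not cover groups lying at it.

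Probe sets were named from the platform annotation (13513 with 1 gene, 503 with several, 8794 not listed), of which 13436 matched a gene table of assembly TAIR10.1, used for names only. Named genes were the 4 genes, listed auxin pathway genes and, for each of the 4, the 3 most similar profiles. The genes and lists were chosen with earlier results of these data known. Same-numbered arrays of different groups did not deviate together consistently (correlations of -0.497 to 0.488, over 0.1 in 7 of 18 pairs). The numbers were not treated as pairs. Control and treated arrays of the same number correlated at -0.0812, 0.315 and 0.488 in WT and at 0.287, 0.0329 and 0.298 in *arf2-6*. Those of different numbers correlated at -0.534 to 0.327 in WT and at -0.311 to 0.0501 in *arf2-6*. A pairing within each genotype was not fitted. Alternatives covered filters, scaling, variance prior, arrays in the fit, a replicate block and each array left out. Tables and plots used Python 3.11.15.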

Additional observations from a re-analysis of the deposited data

Results flagged for a closer look

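*IAA20* is listed because the test of the difference between the genotypes in the auxin effect passed its threshold. The auxin effect was 1.49 log2 in *arf2-6* and 0.01 log2 in WT, a difference of 1.48 log2. WT lay at or beside the lowest value with and without auxin, so that its response was not measured there. The 3 arf2-6_IAA arrays lay above all 9 others. With 3 arrays a group, single arrays could not be screened as outliers within a group.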

How the results depend on the processing

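Of 406 recomputed differences of the 4 genes, 387 kept direction and side of the threshold, 12 lost their call and 7 changed sign at values near 0. Of the lost calls, 11 were of the *IAA20* interaction, which kept its call in 8 alternatives. The control differences of *IAA29* and *IAA30*, with both groups at the lowest value, had little room to change. The *IAA20* interaction was 1.48 log2 (adjusted p = 0.087) with no filter, 1.44 log2 (0.13) without WT_control 3 and arf2-6_control 2, a choice made after seeing the data, and 1.36 to 1.69 log2 (6.4e-05 to 0.12) with single arrays left out. *IAA30* in WT stayed at 0.86 log2 with adjusted p = 0.069 on the 6 WT arrays alone. The *IAA20* effect in WT was -0.01 log2 under upper quartile scaling. Leaving out single arrays moved the genotype difference under auxin, and likewise the interaction, between -0.09 and 0.03 log2 for *IAA29* and between -0.01 and 0.35 log2 for *IAA30*. For *IAA18*, never called, it moved the auxin effect in *arf2-6* between 0.13 (without arf2-6_IAA 2) and 0.36 log2, the genotype difference under auxin between 0.13 (without arf2-6_IAA 2) and 0.39 log2, and the interaction between -0.34 and -0.08 log2 (without WT_IAA 1). The filter on the lowest 50% removed *IAA20* and *IAA30*, which then had no value.

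Counts over all probe sets moved more. For the interaction, 16 calls became 0 with the filter on the lowest 50% in limma (254 probe sets had an unadjusted p under 0.05), 3 with upper quartile scaling, 5 with the robust prior, 8 without the trend, 3 without the 2 control arrays and 2 to 45 with single arrays left out (45 without WT_IAA 3, 18 without WT_IAA 1, 16 without arf2-6_IAA 2 and 2 to 7 without any other). Between genotypes in controls, 122 became 30 with no filter, 2 on the 6 control arrays, 713 without the 2 control arrays and 24 to 517 with single arrays left out (517 without arf2-6_control 2, 456 without WT_control 3, 24 to 44 without any other control array, and 61, 79 and 72 without arf2-6_IAA 3, arf2-6_IAA 2 and WT_IAA 1). Under auxin, 1249 became 648 with no filter, 2162 without the 2 control arrays and 342 to 1560 with single arrays left out (490, 796 and 369 without arf2-6_IAA 1, 2 and 3, and 342 when WT_IAA 2 was left out). The auxin effect gave 622 calls against 1194 on the 6 WT arrays alone, and in *arf2-6* 769 to 1391 against 1210 with single arrays left out (769 without arf2-6_IAA 3). The cause was not tested. With the replicate block, counts were 235 in controls and 6 for the interaction, and no call of the 4 genes changed. For the *IAA20* interaction the block gave 1.48 log2 (adjusted p = 0.047).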

Other observations

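One other probe set was called for a larger auxin effect in *arf2-6* than in WT, and it was picked out after its values were seen. It is 260376_at, for which the annotation lists no gene. It measured 6.99, 7.16 and 7.25 log2 in arf2-6_IAA and 5.64 log2 on all 3 arf2-6_control arrays. In WT_IAA it measured 5.71, 5.64 and 5.64 log2, and in WT_control 5.64 log2 on all 3 arrays. The interaction was 1.47 log2 (limma, SE 0.09, adjusted p = 8.0e-05). With each array left out in turn it stayed between 1.41 and 1.54 log2 and was called in 12 of 12 fits (adjusted p 2.1e-05 to 9.7e-04), whereas *IAA20* was called in 3 of 12. For 260376_at, all control arrays and 2 of 3 WT_IAA arrays lay at the lowest value and so added no spread. The counts of fits therefore do not show which of the 2 differences is firmer. A WT response of 260376_at below the lowest value would not have been seen.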
